A study of Mus musculus with 4 samples.

Results

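The kinesin motors and centromere proteins of MPC11 cells, an antibody-secreting mouse plasmacytoma line, were followed gene by gene after depletion of Ell2, which encodes an elongation factor of RNA polymerase II. Members were all genes counted under a symbol made of Kif and a number, or of Cenp and a letter from a to w. Cenpc1, the older symbol of the CENP-C gene, was taken as a letter code. This gave 56 of the 22722 genes counted, 38 kinesins and 18 CENP genes. The rule used symbols and no measured value, but it was chosen with earlier results of these data known. Of the 56, 44 had enough reads to be tested (26 kinesins and all 18 CENP genes).

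The depleted cells, Ell2-KD, carried a pLKO.1 lentiviral short hairpin RNA against Ell2 (shELL2-1C7), and the control cells, shGFP, carried the same vector with a hairpin against GFP, a jellyfish sequence that mouse cells lack. There were 2 samples in each group, and both groups had 18 h of virus with polybrene, 72 h of puromycin selection and 72 h of expansion. Only 1 hairpin against Ell2 was used. The samples are called biological replicates, but it is not said whether each came from its own transduction, so p-values reflect only how far these particular samples vary. The study was designed to look at splicing, whereas counts per gene give total transcript levels.

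Kinesins are motor proteins that use ATP to move along microtubules or to take them apart. One set builds and drives the mitotic spindle and cytokinesis, and another carries organelles and vesicles. The CENP proteins mark and build the centromere: CENP-A is the histone H3 variant of centromeric nucleosomes, the constitutive centromere-associated network assembles on it, and CENP-E and CENP-F join the outer kinetochore during mitosis. Transcripts of many mitotic members rise in the G2 and M phases of the cell cycle, so in a bulk sample fewer cells in these phases and less RNA per cell cannot be told apart.

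The libraries held 13914488 and 3496471 counts for Ell2-KD replicates 1 and 2, against 8323915 and 5088789 for shGFP replicates 1 and 2. Levels are given as CPM, counts relative to the library total after TMM scaling. Ell2 itself stood at 87.8 and 115 CPM in Ell2-KD and at 938 and 996 CPM in shGFP (log2 change -3.25 ± 0.23, SE; edgeR adjusted p = 0.00032), so the libraries matched their labels. The 7 plasma cell markers looked for summed to between 12700 and 20300 CPM of all counts in every library. Igj and Xbp1 held the most of these counts in each library. The sum does not show Tnfrsf17, which had 18 and 1 counts in Ell2-KD and 159 and 126 in shGFP. The 6 T and NK cell markers summed to at most 4.0, the 3 erythroid markers to at most 0.59 and the 7 myeloid markers to at most 34.3 CPM of all counts, the last in Ell2-KD replicate 2 and mostly from Cd68. Of the 8 fibroblast and epithelial markers, Epcam stood at 450 and 579 CPM of all counts in Ell2-KD and 492 and 623 in shGFP, while the other 7 summed to at most 12.3.

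The motors of the spindle were abundant, and as a class their summed levels overlapped between groups. The 12 tested mitotic kinesins summed to 1859 and 2038 CPM in Ell2-KD and to 2072 and 1892 CPM in shGFP. They made up 66.5% and 68.1% of the summed CPM of all tested Kif members in Ell2-KD, against 69.1% and 68.1% in shGFP. Cenpe, a motor counted with the CENP genes, was not in these sums, nor was Kifc1, a kinesin-family gene left out by the rule. The 11 tested cargo-transport kinesins summed to 908 and 897.5 CPM in Ell2-KD, against 894 and 843 CPM in shGFP. The 18 CENP genes summed to 1484 and 1258 CPM in Ell2-KD and to 1473 and 1610 CPM in shGFP. All 56 members together took 0.434% and 0.416% of counts in Ell2-KD and 0.451% and 0.435% in shGFP.

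**Figure D1:**
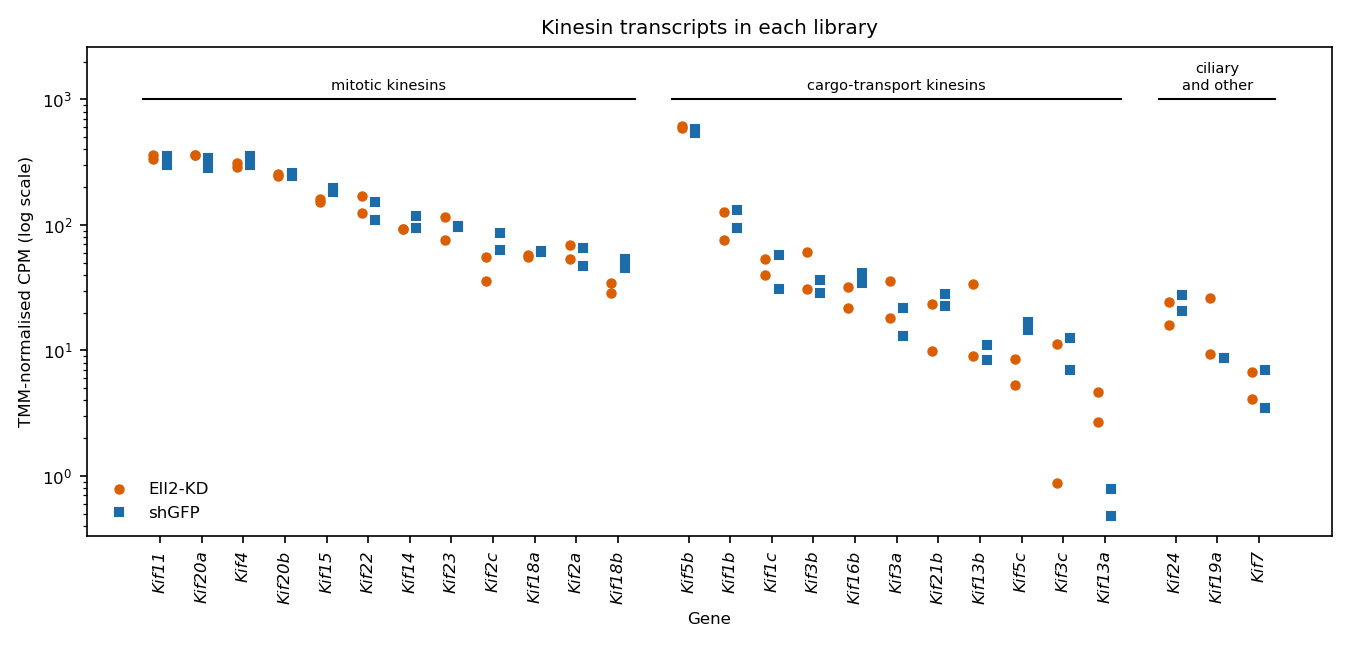
TMM-normalised CPM (log axis) of the 26 tested kinesins in each of the 4 libraries, with Ell2-KD as circles left of shGFP as squares, grouped by role and ordered by mean. Kif5b and the mitotic motors Kif11, Kif20a, Kif4 and Kif20b lie highest, with their libraries close together, while Kif13b, Kif3c and Kif19a spread widely between the 2 Ell2-KD libraries.

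To compare genes with one another, levels were divided by exon length. On this scale, mean CPM per kb of exon over both groups, Kif5b, the heavy chain of conventional kinesin that carries cargo in most cell types, was the highest kinesin at 96.3. It was followed by Kif20a (84.2), a motor of the central spindle that works in cytokinesis, Kif11 (70.2), the Eg5 motor that pushes spindle poles apart, Kif22 (65.8), the chromokinesin Kid, and Kif4 (63.0), a chromokinesin that also shapes the spindle midzone. Kif5b stood at 592 and 609 CPM in Ell2-KD and at 581 and 543 CPM in shGFP. Kif20a stood at 359 and 364 CPM in Ell2-KD and at 339 and 286 CPM in shGFP. Both genes were thus higher in both Ell2-KD libraries than in either shGFP library, but by little: the log2 changes were 0.09 ± 0.20 and 0.21 ± 0.21 (SE), and with 1 library left out they ranged from 0.04 to 0.16 and from 0.09 to 0.35. Kif5b and Kif20a share exon sequence with transcripts of the other strand in the annotation (for Kif20a, of Cdc23), and the strand setting of the counts is not known.

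The mitotic motors below these ran from Kif20b at 44.9 to Kif2a, a microtubule depolymerase that also works outside mitosis, at 10.1 CPM per kb. The level of the cargo-transport kinesins other than Kif5b was at most 7.15 CPM per kb (Kif1b). In this mean over both groups, each of them thus lay below every tested member of the mitotic class, and single libraries were not compared in this way. The class holds only symbols of Kif and a number. Kifc1, a kinesin-family gene that the rule leaves out, stood at 4.58 CPM per kb, below Kif1b. Kif2a, the lowest of the mitotic class, shares exon sequence with Dimt1 on the other strand. The median was 32.0 CPM per kb for mitotic and 4.40 for cargo-transport kinesins. CENP genes ran from Cenpv (81.4) and Cenpi (45.7) through Cenpf (42.4) down to Cenpo (2.96). Cenpv encodes a protein that has been tied to centromere organisation and cytokinesis, and Cenpi encodes a subunit of the constitutive network. Within the network, the subunits that bind one another as CENP-H, CENP-I, CENP-K and CENP-M did not share 1 level, at 28.6, 45.7, 7.90 and 12.1 CPM per kb. Neighbours in this order, such as Kif11, Kif22 and Kif4, differ by less than the spread of the libraries of each, and the lengths come from a later annotation than the one that was counted, so the order is approximate.

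**Figure D2:**
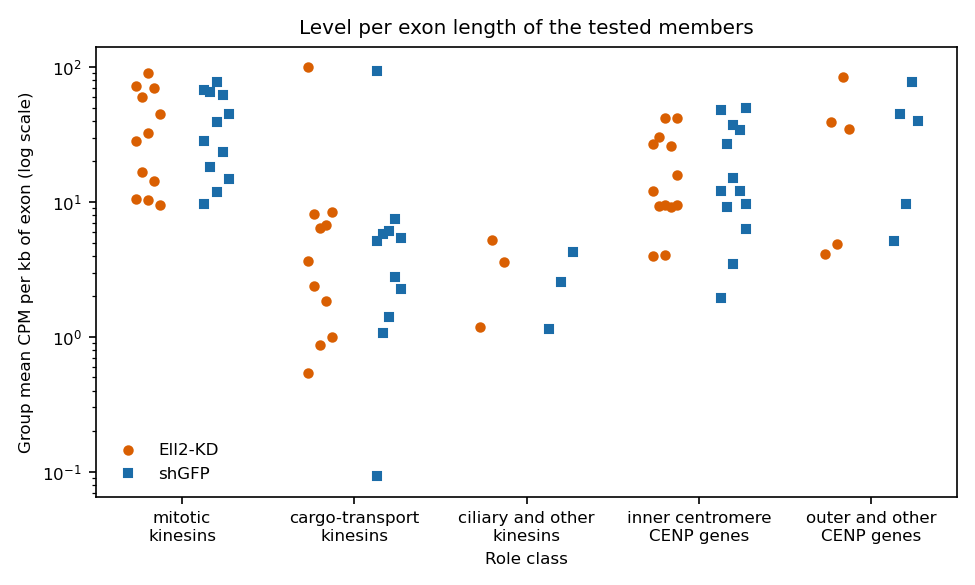
Group mean CPM per kb of exon (log axis) of each tested member by role class, with Ell2-KD as circles left of shGFP as squares. In the mean over both groups, mitotic kinesins lie between about 10.1 and 84.2, and all cargo-transport kinesins but Kif5b (96.3) at or below 7.15.

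Members of 1 subfamily differed strongly in level. Of the conventional kinesin heavy chains, Kif5c stood at 1.64 CPM per kb against 96.3 for Kif5b, and Kif5a, a neuronal form, had 2 to 5 counts in each library. Of the Kif1 family of vesicle motors, Kif1b (7.15) and Kif1c (6.25) were tested and the neuronal Kif1a had 2 to 4 counts in each library. Kif3a (6.90) and Kif3b (6.95), the motor subunits of heterotrimeric kinesin-II, stood at nearly the same level per length, and Kif3c, their relative in neurons, at 1.14. Kif2c, the depolymerase MCAK of the centromere, stood at 18.9, above Kif2a at 10.1, while Kif2b had 0 to 4 counts. All 12 members that were not tested were kinesins: Kif1a, Kif2b, Kif4b, Kif5a, Kif6, Kif9, Kif12, Kif17, Kif21a, Kif26a, Kif26b and Kif27. None had more than 11 counts in any library, and their sums over the 4 libraries ran from 3 to 32. Kif4b is listed as a transcribed processed pseudogene. Whether reads that match both Kif4b and Kif4 were counted for either is not known.

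Promoter letters were counted by the same classes. In cell cycle genes, the hexamer TTTGAA and its variant form TTCGAA are known as the CHR element, at which complexes of the DREAM and MuvB family act, and CCAAT is the box bound by NF-Y. In RefSeq windows from 250 bases before to 50 after each start (GRCm38.p6), 49 of the 56 members had at least 1 window, 55 in all. On either strand, a CHR hexamer of either form occurred in 9 of 13 windows of mitotic kinesins (69.2%) and in 1 of 12 of cargo-transport kinesins (8.33%), against 19.2% of all 32851 promoter windows. The 9 windows belong to Kif2c, Kif4, Kif11, Kif14, Kif15, Kif18b, Kif20b, Kif22 and Kif23. Over the full window, 3 of 10 windows of ciliary and other kinesins (30%) and 1 of 5 of outer and other CENP genes (20%) held a CHR hexamer. In the inner centromere class, 5 of 15 full windows (33.3%) held a CHR hexamer, and 12 of 15 (80.0%) held CCAAT on either strand, against 37.4% of all windows. Within the last 60 bases before the start and the 50 after it, 7 of the 13 mitotic kinesin windows held a CHR hexamer, against 5.90% of all windows. In this stretch the hexamer was in 1 of 12 windows of cargo-transport kinesins and 2 of 10 of ciliary and other kinesins. It was in 3 of 15 windows of inner centromere genes and 1 of 5 of outer and other CENP genes. Hexamers and CCAAT boxes were counted separately, and hits that share a base at their ends were allowed. A match is a run of letters, not a shown binding site.

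Whether the changes between groups given below go with promoter letters was not tested. Windows of 5 members are printed as examples. They are Kif11 and Cenpa, the markers of the motors and of the centromere, Cenpj and Kif2c, which had small p-values toward lower levels, and Cenpo, which had the smallest toward higher levels. Capitals mark a CHR hexamer or a CCAAT box, read on either strand, and each window runs 5′ to 3′ on the strand of the gene with its start after base 250.
Kif11, chr19:37376132-37376431, plus strand: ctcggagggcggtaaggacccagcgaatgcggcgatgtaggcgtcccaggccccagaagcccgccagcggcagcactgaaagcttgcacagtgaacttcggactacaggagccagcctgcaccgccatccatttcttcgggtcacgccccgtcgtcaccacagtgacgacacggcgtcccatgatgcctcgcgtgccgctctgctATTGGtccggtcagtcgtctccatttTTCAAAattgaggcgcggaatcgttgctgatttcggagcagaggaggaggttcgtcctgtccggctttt
Kif2c, chr4:117178723-117179022, minus strand: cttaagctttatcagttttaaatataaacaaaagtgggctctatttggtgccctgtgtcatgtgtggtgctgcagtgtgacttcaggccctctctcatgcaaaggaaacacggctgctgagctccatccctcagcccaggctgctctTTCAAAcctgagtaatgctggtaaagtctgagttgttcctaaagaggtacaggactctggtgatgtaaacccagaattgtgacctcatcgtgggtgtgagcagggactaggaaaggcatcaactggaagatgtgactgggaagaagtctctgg
Cenpa, chr5:30666636-30666935, plus strand: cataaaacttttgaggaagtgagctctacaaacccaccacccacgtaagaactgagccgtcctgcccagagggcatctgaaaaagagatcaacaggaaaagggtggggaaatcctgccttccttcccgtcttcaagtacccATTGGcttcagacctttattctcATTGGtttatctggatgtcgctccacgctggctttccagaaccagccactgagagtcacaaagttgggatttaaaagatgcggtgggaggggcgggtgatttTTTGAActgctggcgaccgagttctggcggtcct
Cenpj, chr14:56571797-56572096, minus strand: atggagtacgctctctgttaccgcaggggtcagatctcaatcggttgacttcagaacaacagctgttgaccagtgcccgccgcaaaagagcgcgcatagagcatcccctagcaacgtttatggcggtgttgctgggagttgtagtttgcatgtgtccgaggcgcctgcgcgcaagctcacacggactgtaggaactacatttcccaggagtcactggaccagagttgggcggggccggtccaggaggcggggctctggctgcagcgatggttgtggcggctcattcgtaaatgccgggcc
Cenpo, chr12:4233916-4234215, minus strand: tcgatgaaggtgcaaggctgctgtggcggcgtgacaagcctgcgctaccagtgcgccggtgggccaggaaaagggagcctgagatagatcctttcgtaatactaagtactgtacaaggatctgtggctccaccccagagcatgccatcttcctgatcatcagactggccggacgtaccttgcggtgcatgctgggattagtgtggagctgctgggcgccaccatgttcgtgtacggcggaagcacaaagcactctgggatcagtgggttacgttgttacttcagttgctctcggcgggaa
Kif11 has TTTGAA on the opposite strand, with its first base in the window at -19, and 1 CCAAT box on the opposite strand at -45. Cenpa has 1 TTTGAA at 17 bases into the transcript and 2 CCAAT boxes on the opposite strand, at -109 and -86. Kif2c has TTTGAA on the opposite strand at -103 and no CCAAT, and the windows of Cenpj and Cenpo hold none of these letters.

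None of the 44 tested members passed the test between groups. Adjusted over all 11027 genes (quasi-likelihood test of edgeR, Benjamini-Hochberg), 5 genes or 0.0453% passed, 0.00907% as higher and 0.0363% as lower, and the members' adjusted p ran from 0.83 to 0.999. At an unadjusted p under 0.05 there was 1 member, Cenpj, among 44, against 5.82% of all genes. DESeq2 likewise gave 0 members past the threshold and 1 at an unadjusted p under 0.05. With the replicate number as a block in edgeR, 0 members passed. In that fit 3 of 44 had an unadjusted p under 0.05, against 1168 of all 11027 genes. The log2 change was above 0 for 20 of the tested members and below 0 for 24. Their median was -0.03, against -0.00 for all genes tested, and the median size of a change was 0.25, against 0.33 for all genes. Both Ell2-KD libraries lay on 1 side of both shGFP libraries for 17 of 44 members (38.6%; 6 higher and 11 lower), close to the 35.8% of all genes for which this held (17.4% higher and 18.5% lower).

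The precision differed by class. For the mitotic kinesins the standard error of the log2 change ran from 0.21 to 0.37, and for 10 of 12 the 95% confidence interval lay within 1 log2 unit of 0. Among the cargo-transport kinesins this held for 3 of 11, with standard errors up to 1.48, and among the CENP genes for 6 of 18. A change of 2-fold or more in either direction therefore lies outside the interval for most spindle motors, but not for most of the other members.

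**Figure D3:**
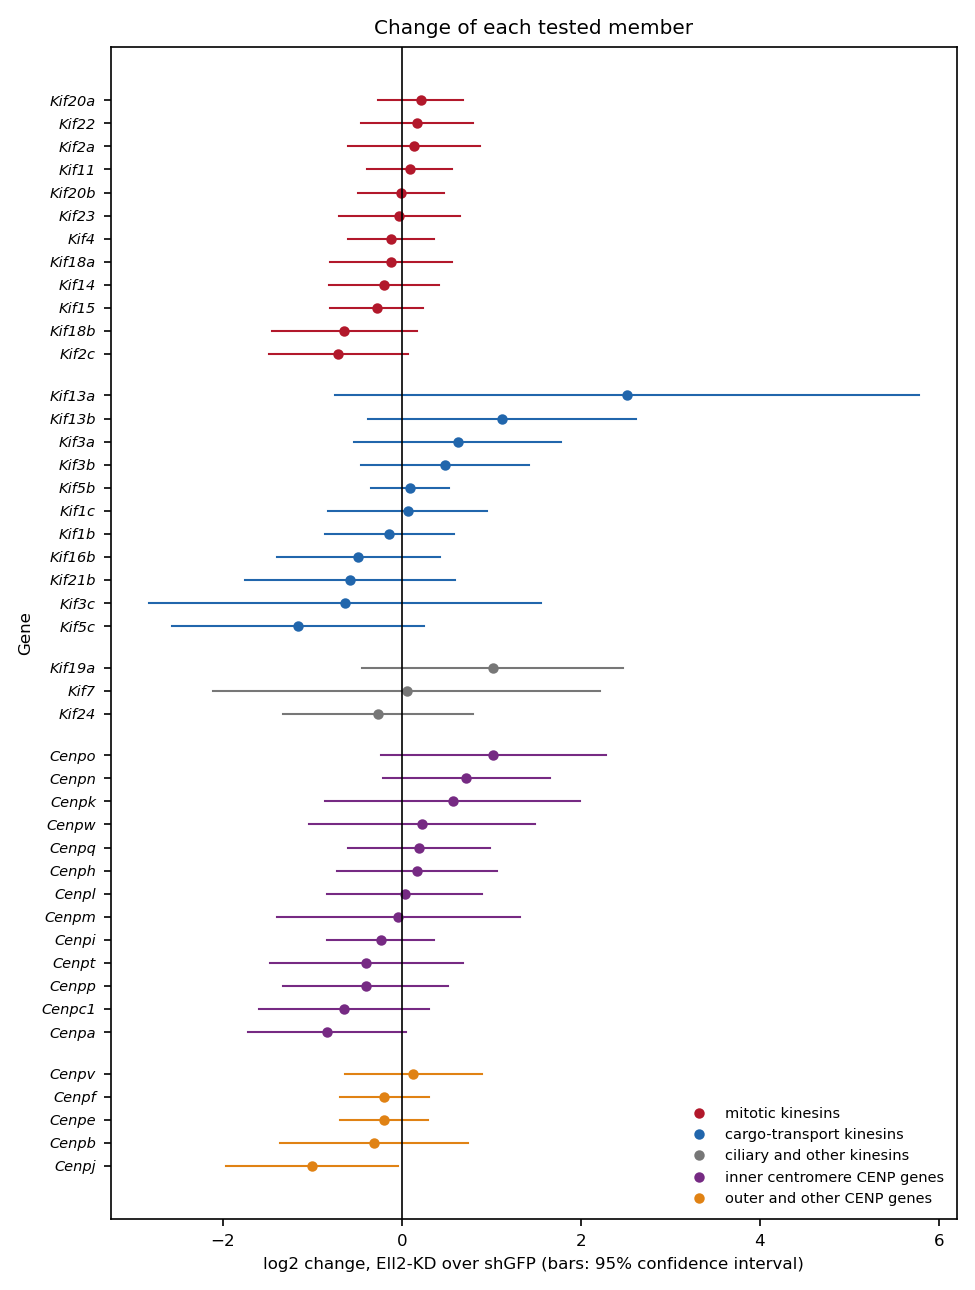
Log2 change of each of the 44 tested members, Ell2-KD over shGFP, with its 95% confidence interval as a bar, coloured and grouped by role. Intervals are narrow for abundant motors such as Kif20a and Kif11 and wide for scarce ones such as Kif13a and Kif3c, and only that of Cenpj leaves out 0.

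Kif11 stood at 336 and 361 CPM in Ell2-KD and at 356 and 299 CPM in shGFP, so the groups overlapped. Its log2 change was 0.09 ± 0.22 (SE; 95% confidence interval -0.38 to 0.57; edgeR adjusted p = 0.999), and without shGFP replicate 2 it was -0.03. For most other abundant spindle motors, though not for Kif15, the change was within 1 standard error of 0. Kif20b, a motor of cytokinesis, had -0.01 ± 0.22 and Kif23, the MKLP1 motor of the central spindle, -0.03 ± 0.30. Kif4 had -0.12 ± 0.22, Kif22 0.17 ± 0.28 and Kif20a, as given above, 0.21 ± 0.21. Kif15, which works beside Eg5 on the spindle, stood at 161 and 152 CPM in Ell2-KD and at 196 and 184 CPM in shGFP (log2 change -0.28 ± 0.23). For Kif15 the 4 libraries separated by group with little spread within each, yet the difference did not pass (edgeR adjusted p = 0.959).

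The mitotic kinesins farthest from 0 were Kif2c and Kif18b, both microtubule regulators at the plus end or the centromere. Kif2c stood at 36.0 and 55.9 CPM in Ell2-KD and at 86.0 and 63.1 CPM in shGFP, giving a log2 change of -0.71 ± 0.35 (95% confidence interval -1.48 to 0.07; edgeR adjusted p = 0.865), and of -0.42 without Ell2-KD replicate 1. Kif18b stood at 28.6 and 34.5 CPM in Ell2-KD and at 53.1 and 45.0 CPM in shGFP, a log2 change of -0.64 ± 0.37 (edgeR adjusted p = 0.906). In both cases the 2 Ell2-KD libraries lay below the 2 shGFP libraries. Kif18a, the relative of Kif18b that limits chromosome oscillations at the spindle equator, stood at 55.7 and 57.4 CPM in Ell2-KD and at 61.6 and 61.3 CPM in shGFP (log2 change -0.12 ± 0.31). Whether the changes of Kif18a and Kif18b differ from each other was not tested. Of the 12 mitotic kinesins, 8 lay below 0 and 4 above it. Their median was -0.07, and it was -0.21 within replicate number 1 and 0.06 within number 2 in log2 CPM.

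Among the cargo-transport kinesins, 6 changes lay above 0 and 5 below it, around a median of 0.06, which was -0.17 without Ell2-KD replicate 1 and -0.04 at a minimum count of 30. Kif5c stood at 8.51 and 5.27 CPM in Ell2-KD and at 16.8 and 14.5 CPM in shGFP, with counts of 120 and 18 against 141 and 73. The 2 Ell2-KD libraries lay below both controls, at a log2 change of -1.16 ± 0.64 (edgeR adjusted p = 0.886). Kif13b, a motor of endosomal and signalling cargo, stood at 9.01 and 33.7 CPM in Ell2-KD and at 10.97 and 8.33 CPM in shGFP. The log2 change of Kif13b, 1.12 ± 0.68 (edgeR adjusted p = 0.906), came from Ell2-KD replicate 2, and without that library it was -0.10. Kif13a, its relative, had 38 and 16 counts in Ell2-KD against 4 and 4 in shGFP, or 2.70 and 4.68 against 0.48 and 0.79 CPM (log2 change 2.52 ± 1.48; edgeR adjusted p = 0.906). Kif13a reached the count minimum through the Ell2-KD libraries alone, and a gene that is tested for this reason had to differ.

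Kif3a and Kif3b had log2 changes of 0.63 ± 0.53 and 0.48 ± 0.43, while Kifap3, the adaptor that binds both (no member by the rule), stood at 17.4 and 11.7 CPM in Ell2-KD and at 28.0 and 18.7 CPM in shGFP (log2 change -0.67 ± 0.51; edgeR adjusted p = 0.953). None of these 3 passed. Of the kinesins tied to cilia or to no class, 3 of 11 were tested. Kif19a, a depolymerase of ciliary tips, stood at 9.36 and 26.4 CPM in Ell2-KD and at 8.71 and 8.73 CPM in shGFP (log2 change 1.01 ± 0.66; edgeR adjusted p = 0.916), and without Ell2-KD replicate 2 the change was 0.11. Kif24, a centriolar kinesin, and Kif7, a regulator of Hedgehog signalling, had changes of -0.27 ± 0.48 and 0.05 ± 0.98.

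The CENP genes gave the smallest p-values of all members. Cenpa stood at 56.9 and 31.0 CPM in Ell2-KD and at 102 and 56.4 CPM in shGFP. The lower shGFP library thus met the higher Ell2-KD library, and replicate 2 was lower than replicate 1 in both groups, by about as much as the groups differed. Within number 1 the difference in log2 CPM was -0.84 and within number 2 -0.86. The log2 change in the test was -0.84 ± 0.40 (SE; 95% confidence interval -1.72 to 0.05; edgeR adjusted p = 0.861), and with 1 library left out it ranged from -1.35 to -0.34.

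**Figure D4:**
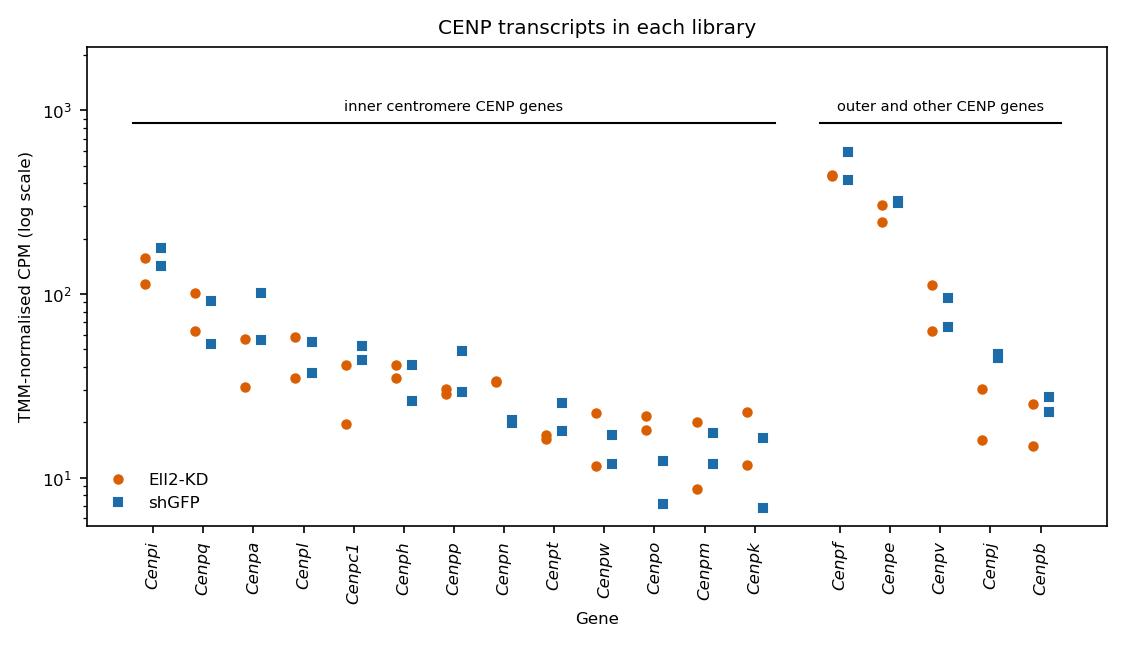
TMM-normalised CPM (log axis) of the 18 CENP genes in each of the 4 libraries, with Ell2-KD as circles left of shGFP as squares, grouped by role and ordered by mean. Cenpj lies lower and Cenpn and Cenpo higher in both Ell2-KD libraries than in either shGFP library, while the libraries of most others overlap.

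Cenpj stood at 15.96 and 30.4 CPM in Ell2-KD and at 44.7 and 47.0 CPM in shGFP. Its product, CPAP, is a centriole protein that was named among the CENPs and sets centriole length. Both Ell2-KD libraries were lower, with a log2 change of -0.9997 ± 0.44 (SE; 95% confidence interval -1.96 to -0.04; edgeR adjusted p = 0.83). It was -1.51 without Ell2-KD replicate 2 and -0.59 without Ell2-KD replicate 1.

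Within the constitutive network, 7 of 13 tested members of the inner centromere class (Cenpa included) lay above 0 and 6 below it, around a median of 0.03. This median was -0.20 when Ell2-KD replicate 1 was left out and -0.01 when Ell2-KD replicate 2 was. Leaving out shGFP replicate 1 gave -0.11, and leaving out shGFP replicate 2 gave 0.27. Within number 2 alone the median difference of this class was -0.09. Cenpo, of the CENP-O, P, Q, R and U group, stood at 21.7 and 18.1 CPM in Ell2-KD and at 12.4 and 7.14 CPM in shGFP (log2 change 1.02 ± 0.57; edgeR adjusted p = 0.891). Leaving out 1 library at a time gave log2 changes of Cenpo between 0.68 and 1.49. The exons of Cenpo overlap those of Adcy3 and Ptrhd1 on the other strand, so its counts may hold reads of these genes. Cenpn, which with CENP-L recognises the CENP-A nucleosome, stood at 33.0 and 33.7 CPM in Ell2-KD and at 20.5 and 19.8 CPM in shGFP (log2 change 0.72 ± 0.42; edgeR adjusted p = 0.906). For both genes the groups did not overlap, and Cenpn had the smaller spread between replicates. Its partner Cenpl had a change of 0.03 ± 0.39, and the partners of Cenpo in the group, Cenpp and Cenpq, had -0.40 ± 0.42 and 0.19 ± 0.36. Exons of Cenpp and Cenpq also overlap a gene on the other strand.

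Cenpc1, whose product links the CENP-A nucleosome to the outer kinetochore, stood at 41.3 and 19.6 CPM in Ell2-KD and at 43.9 and 52.2 CPM in shGFP (log2 change -0.64 ± 0.43). The low value was that of Ell2-KD replicate 2, the shallowest library, with 67 counts. Cenpi stood at 157 and 113 CPM in Ell2-KD and at 177 and 143 CPM in shGFP (log2 change -0.24 ± 0.27), and the groups overlapped. The change of Cenpi was -0.50 without Ell2-KD replicate 1 and -0.01 without Ell2-KD replicate 2. Cenpt, the DNA-binding subunit that recruits the outer kinetochore on its own branch, had -0.40 ± 0.49 and its partner Cenpw 0.23 ± 0.57. Of the subunits counted under other symbols, Mlf1ip (CENP-U) had the smallest p, at 18.4 and 14.3 CPM in Ell2-KD and 11.1 and 7.94 CPM in shGFP (log2 change 0.79 ± 0.59; edgeR adjusted p = 0.952), and 3 of these 4 genes had a positive change.

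Of the outer and other CENP genes, the outer kinetochore members Cenpf and Cenpe were abundant. Cenpf stood at 436.5 and 443 CPM in Ell2-KD and at 417 and 589 CPM in shGFP (log2 change -0.19 ± 0.23; edgeR adjusted p = 0.987), and without shGFP replicate 2 the change was 0.08. Cenpe, the motor that carries chromosomes to the spindle equator, stood at 304 and 247 CPM in Ell2-KD and at 315 and 319 CPM in shGFP (log2 change -0.20 ± 0.22). Cenpv stood at 112 and 62.9 CPM in Ell2-KD and at 94.6 and 66.3 CPM in shGFP (log2 change 0.13 ± 0.35; edgeR adjusted p = 0.999), and it was lower in replicate 2 of both groups. Without shGFP replicate 2 the change of Cenpv was -0.11, and without Ell2-KD replicate 1 it was -0.36. The product of Cenpb binds the CENP-B box of centromeric satellite DNA. Cenpb was scarcer, at 25.3 and 14.9 CPM in Ell2-KD and 27.4 and 22.8 CPM in shGFP (log2 change -0.31 ± 0.48).

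Differences between groups, each between means of 2 libraries, are given beside those between single replicates, and their sizes are not directly comparable. For mitotic kinesins the median size of the difference in log2 CPM was 0.11 between the 2 Ell2-KD libraries and 0.25 between the 2 shGFP libraries, and the median size of the fitted log2 change between groups was 0.15. For CENP genes these values were 0.72, 0.51 and 0.27, and for cargo-transport kinesins 0.75, 0.39 and 0.58. For all genes tested they were 0.50, 0.40 and 0.33. Within replicate numbers, 9 members were higher and 17 lower in Ell2-KD in both numbers, and 18 differed in sign. The same sign thus held for 59.1% of members, against 57.3% of all genes tested.

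**Figure D5:**
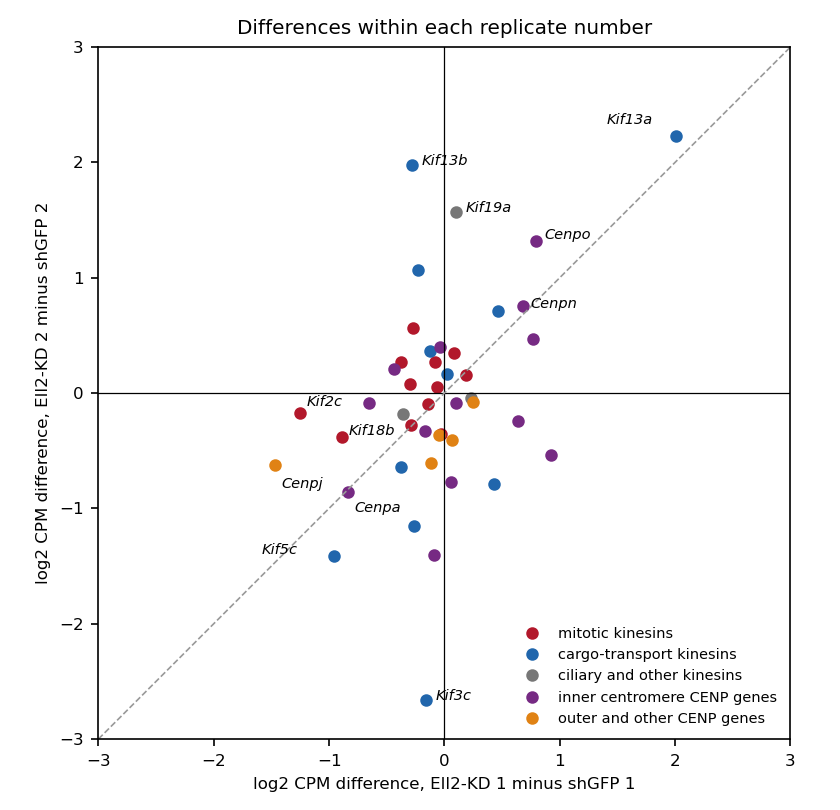
Difference in log2 CPM of each tested member between Ell2-KD 2 and shGFP 2 (vertical) against that between Ell2-KD 1 and shGFP 1 (horizontal), coloured by role, with the line of equal differences dashed. Cenpa (-0.84 and -0.86) and Cenpn (0.68 and 0.75) lie near the line, as does Kif13a (2.01 and 2.23), which was tested only because both Ell2-KD libraries were high, whereas Kif13b (-0.28 and 1.98) and Kif3c (-0.16 and -2.66) differ between the numbers.

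Genes that work with these members were counted by list. Of 7 genes listed for CENP-A loading, 5 had a positive change, none passed and the median was 0.26. The 2 below 0 were Hjurp and Mis18a, the latter counted under an older symbol. Hjurp stood at 258 and 229 CPM in Ell2-KD and at 288 and 333 CPM in shGFP (log2 change -0.35 ± 0.22). Mis18a had a log2 change of -0.19 ± 0.37, and for both genes the Ell2-KD libraries lay below both shGFP libraries. Oip5, a subunit of the Mis18 complex that primes centromeres for new CENP-A, stood at 37.3 and 59.1 CPM in Ell2-KD and at 25.4 and 16.9 CPM in shGFP (log2 change 1.18 ± 0.43; edgeR adjusted p = 0.754). Of 17 outer kinetochore genes, 6 lay above 0 and 11 below it, around a median of -0.15. Pmf1, a subunit of the Mis12 complex, stood at 26.3 and 18.7 CPM in Ell2-KD and at 61.4 and 37.5 CPM in shGFP (log2 change -1.13 ± 0.42; edgeR adjusted p = 0.782). Oip5 was thus higher and Pmf1 lower in both Ell2-KD libraries, and neither passed.

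Of 14 genes of the chromosomal passenger complex and the spindle checkpoint, 6 lay above 0 and 8 below it, around a median of -0.08. Sgol2, which protects centromeric cohesion, had the smallest p, at 133 and 114 CPM in Ell2-KD and 141.5 and 198 CPM in shGFP (log2 change -0.46 ± 0.27; edgeR adjusted p = 0.906). Of 18 spindle and cytokinesis partners, 12 lay below 0, around a median of -0.18. The smallest p was that of Ckap5, a microtubule polymerase gene, at 274 and 239 CPM in Ell2-KD and 417 and 358 CPM in shGFP (log2 change -0.60 ± 0.22; edgeR adjusted p = 0.754). Of 7 tested genes for other kinesin family members, light chains and adaptors, 6 lay below 0, around a median of -0.25. Klc1, a light chain that joins Kif5 motors to cargo, was the exception and had the smallest p, at 73.4 and 72.3 CPM in Ell2-KD and 49.96 and 46.8 CPM in shGFP (log2 change 0.59 ± 0.31; edgeR adjusted p = 0.871).

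Of 16 proliferation genes, 9 lay above 0 and 7 below it, around a median of 0.08, and 1 fell. This was Ccnb2, which encodes cyclin B2, at 48.7 and 38.4 CPM in Ell2-KD and 175 and 187 CPM in shGFP (log2 change -2.05 ± 0.29; edgeR adjusted p = 0.043). Over these lists Ccnb2 was the only gene to pass, out of 5 such genes among all those tested, and no mitotic kinesin or CENP gene changed with it past the threshold.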

How the data were processed

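The assay was SOLiD RNA-seq of total RNA from 4 cultures, as the protocols in the labels state. The authors deposited raw read counts per gene symbol, 1 library per table, per the file headers. HTSeq 0.5.3, SAMtools 0.1.11, DESeq 1.4.1 and the build mm9 are named in the submitters' processing notes. Aligner, annotation and strand setting were not given in the sources used here, so reads of overlapping genes on the 2 strands could not be told apart. Exons of 16 members overlap another gene in GENCODE M21 (GRCm38), which also gave exon lengths (the union of basic transcripts). Besides Kif5b, Kif20a, Kif2a and Cenpo, the tested members among them were Kif1c, Kif3c, Kif4, Kif7, Kif18a, Cenpb, Cenpp, Cenpq and Cenpt. Symbols were matched to RefSeq, 55 members as written and 1 through an older symbol, and promoter sequences are from RefSeq (GRCm38.p6).

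The test used edgeR 4.0.16 (R 4.3.3): filterByExpr (minimum count 10, minimum total 15), TMM, robust glmQLFit and a two-sided glmQLFTest with group as the only term over all 4 libraries, and Benjamini-Hochberg adjustment over all genes with a threshold of 0.05. The common biological coefficient of variation was 0.431. Standard errors are the size of the log2 change divided by the square root of F, and intervals are 95%. Log2 CPM used a prior count of 2. DESeq2 1.42.0 and other settings were tried as alternatives, and the test was tried on simulated data. Correlations of log2 CPM between libraries lay below 1, so none was a copy of another.

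The members, role classes and partner lists were chosen with earlier results of these data known. Full values are given for Kif11, Cenpa, the 5 tested members with the smallest p in each direction, the 3 kinesins and 3 CENP genes with the highest CPM per kb, and the gene with the smallest p of each partner list. Values of further members were added to describe each role class. Those of Kifap3, Hjurp, Mis18a and Tnfrsf17, and the comparison of paralogs, were chosen after their values were seen.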

Additional observations from a re-analysis of the deposited data

How the results depend on the processing

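No member passed the threshold in any of the 9 alternatives run. The smallest adjusted p of a member was 0.108, without Ell2-KD replicate 1. Over all genes, 5 passed in the main fit, 6 under RLE scaling and 5 at a minimum count of 30. The count was 46 under DESeq2, 22 with no filter on low counts and 28 with the replicate number as a block, and between 14 and 142 with 1 library left out, which leaves 1 group with a single library assumed to vary like the other group. The cause of these shifts was not tested.

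Of 143 alternative values of the 16 members given in full, 138 kept their direction and 5 reversed, all with 1 library left out: Kif11, Cenpf and Cenpv without shGFP replicate 2, Cenpv also without Ell2-KD replicate 1, and Kif13b without Ell2-KD replicate 2. With 1 library left out, the log2 change ranged from -0.031 to 0.23 for Kif11, from -0.41 to 0.075 for Cenpf, from -0.36 to 0.49 for Cenpv (-0.11 without shGFP replicate 2) and from -0.096 to 1.79 for Kif13b. The median of the members was -0.09 with the replicate number as a block, lay between -0.13 and -0.04 with 1 library left out, and was 0.07 with no filter on low counts, which adds the 12 scarce members. Same-numbered samples deviated together from their group means (r = 0.31 over genes), but the labels do not say what a number marks. Ell2-KD replicate 2 held 3496471 counts, which limits the precision for scarce members such as Kif13a (16 counts there) and Kif3c (3 counts there). Kif3c also differed between the Ell2-KD libraries after scaling, at 11.2 CPM in replicate 1 and 0.88 in replicate 2. The cause of this difference was not tested.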
